A study of Mus musculus with 40 samples.

Results

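Synaptotagmins are membrane-bound proteins of neurons and secretory cells, and 10 of their genes were followed here through mouse hippocampus from which the histone variant H2A.Z had been deleted, with or without a viral replacement. The 10 genes, Syt1, Syt2, Syt3, Syt4, Syt5, Syt7, Syt11, Syt12, Syt13 and Syt17, were taken by symbol from 40853 genes in the count table. They were chosen with earlier results of these data known. They are not the whole family, and 7 other synaptotagmins are described further below. RNA-seq was run on the hippocampus of 40 mice (18 females, 22 males) after stereotaxic virus injection. All mice were floxed for H2A.Z.1 and H2A.Z.2 by the study's methods, although the labels give the Myc genotype as WT. Age was not given in the sources used here.

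Each sex had 5 groups. Myc mice received a virus for the Myc tag with GFP and no Cre (3 females, 4 males). KO mice (genotype label H2A.Z.1/H2A.Z.2 KD) received Cre under the Synapsin promoter, a promoter active in neurons, together with the Myc virus (4 females, 4 males). WT, KA and KQ mice received the same Cre with Myc-tagged H2A.Z.1 under the CMV promoter, as the wild-type protein (4 females, 5 males), as a form whose N-terminal lysines were changed to alanine (KA; 4 females, 4 males), or as one with glutamine there (KQ; 3 females, 5 males). The CMV promoter is not specific to neurons, the replacement is of H2A.Z.1 alone, and the tissue holds infected and uninfected cells together.

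Synaptotagmins carry tandem C2 domains. In some members these bind calcium and then membrane phospholipids and SNARE proteins, which couples calcium entry to vesicle fusion. Other members lack the residues for calcium binding and act in vesicle traffic, endocytosis or dense-core vesicle exocytosis. In the forebrain Syt1 is the sensor for fast synchronous transmitter release, Syt2 does this work mainly in hindbrain, spinal cord and some inhibitory neurons, and Syt7 serves slow, asynchronous release and facilitation.

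The genes lie on 7 chromosomes and none is a neighbour copy of another. Syt1 spans chr10:108333505-108846856 (GRCm39, - strand, 11 exons in the canonical transcript), Syt2 chr1:134574290-134690331 (+, 10 exons) and Syt3 chr7:44022982-44049611 (+, 10 exons). Syt5 lies at chr7:4542756-4550922 (-, 8 exons) and Syt7 at chr19:10366033-10430544 (+, 12 exons). Syt11 occupies chr3:88632134-88682471 (-, 4 exons), Syt12 chr19:4495157-4527880 (-, 8 exons), Syt13 chr2:92745339-92790093 (+, 6 exons) and Syt17 chr7:117979934-118055470 (-, 8 exons). Exons of antisense genes cover 19.1% of the exon bases of Syt4 (Gm26658) and 18.3% of those of Syt12 (A930001C03Rik), and each antisense gene at most 8.11% elsewhere. Whether counting used the strand is not given in the sources used here, so reads of such partners could have been counted together.

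H2A.Z sits in the nucleosomes that flank start sites, so the DNA just upstream of a RefSeq start is shown for Syt1 and Syt3, members whose transcripts were lower in KO mice of both sexes. RefSeq promoter windows (table built on GRCm38.p6) were read for 4 members, Syt1, Syt2, Syt3 and Syt11, and each 250-base upstream window had 1 exact match in GRCm39. The stretches printed are those free of annotated exons, 230 bases for Syt1 and 207 for Syt3, with each CG dinucleotide, the site of DNA methylation, in capitals. The Syt1 stretch ends at the gene's outer start, whereas those of Syt3 and of Syt11 (not printed) belong to starts inside the annotated gene.
Syt1 (GRCm39 chr10:108846857-108847086, - strand): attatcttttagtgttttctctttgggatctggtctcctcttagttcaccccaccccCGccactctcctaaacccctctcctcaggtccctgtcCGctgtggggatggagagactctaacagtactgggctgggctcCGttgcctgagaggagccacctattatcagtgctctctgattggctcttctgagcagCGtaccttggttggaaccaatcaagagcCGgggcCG
Syt3 (GRCm39 chr7:44033300-44033506, + strand): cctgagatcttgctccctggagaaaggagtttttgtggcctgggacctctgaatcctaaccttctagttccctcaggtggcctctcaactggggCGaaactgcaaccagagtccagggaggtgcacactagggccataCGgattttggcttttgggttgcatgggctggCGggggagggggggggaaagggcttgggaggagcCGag
The full 250-base windows held 8 CG each (for Syt1 in the richer of its 2 windows), and 43.0% of 32851 windows in the table held at least as many (median 6). The richer of the 2 Syt2 windows held 30 CG, a number that 5.94% of windows reached, and the other 22, and that of Syt11 held 9 (40.3%). The CG motif reads the same on both strands, and no chromatin values were used here.

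Total counts ranged from 24342921 to 45982772 per mouse. The deletion could not be read from the targeted transcripts at gene level: H2az1 stood at 32.2 ± 3.58 CPM (SD, n = 3) in Myc females and 31.0 ± 3.67 (n = 4) in KO females, and at 32.9 ± 4.38 and 31.5 ± 9.37 (n = 4 each) in males. Neither H2az1 (adjusted p = 0.828 and 0.841) nor H2az2 (0.0609 and 0.35) passed the threshold between KO and Myc in females or males, so KO names the libraries labelled so. The H2az2 mean was higher in KO than in Myc in both sexes, opposite to the direction the study reports. The study itself reports lower H2az1 mRNA with Cre alone, lower H2az2 mRNA in all Cre groups, and a marked loss of H2A.Z in cultured neurons given Cre. For the small drop in tissue it names as likely reason that bulk RNA is insensitive to a deletion in neurons only. H2az1 means were 37.4 to 42.0 CPM in the 6 replacement groups. CPM is a gene's count scaled to the size of its library, after TMM normalization. Adjusted p-values are from edgeR over 28449 genes whose counts summed to 20 or more, and all 10 synaptotagmins passed that filter.

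Markers of other cells moved with the groups. In KO mice all 7 microglial markers were higher than in Myc mice in each sex, their sum rising from 284 to 439 CPM over the 7 Myc mice to 1063 to 2099 over the 8 KO mice. All 5 T cell markers were higher as well (summed 0.411 to 2.46 CPM in Myc, 13.1 to 129 in KO), as were 5 of 6 astrocyte markers (3613 to 4367 CPM in Myc, 5927 to 11760 in KO). The 7 choroid plexus markers were higher in KO females (60.0 to 3962 CPM against 24.5 to 44.8) and in none of 7 cases past the threshold in males. No marker of these lists was at 0 throughout a group. Fewer neurons and less RNA per neuron cannot be told apart in bulk tissue, and the part that cell composition had in the changes below was not tested.

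Per length of exon, Syt1 was the most abundant member in Myc mice, at 126.7 ± 4.93 CPM per kilobase (SD, n = 7), or 33.7% of the 10 together. Syt11, which does not bind calcium, followed at 82.7 ± 3.88. Then came Syt4 at 45.6, Syt7 at 39.7 and Syt5 at 37.2 CPM per kilobase, and these neighbours were close: Syt4 was above Syt7, and Syt7 above Syt5, in 6 of 7 mice each. Syt13 stood at 19.2, Syt3 at 9.60 and Syt17 at 6.67 CPM per kilobase. The lowest pair, Syt12 at 4.62 and Syt2 at 4.14, did not separate, Syt12 being the higher in 3 of 7 mice. With the longest transcript as the length, Syt3 and Syt17 changed places and no other rank changed. The levels themselves moved, unequally between members: Syt1 stood at 326.9, Syt11 at 136.5 and Syt4 at 45.8 CPM per kilobase. The share of Syt1 among the 10 therefore depends on the length used.

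**Figure D1:**
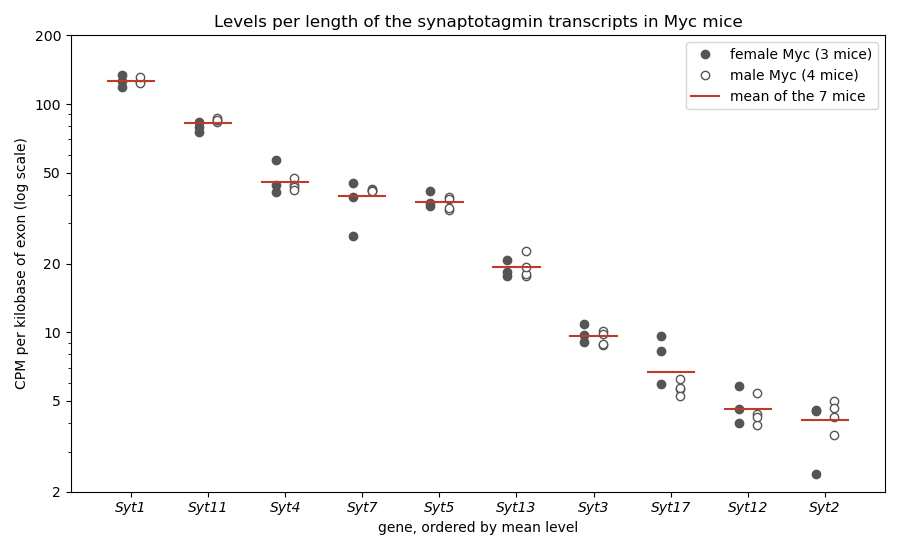
CPM per kilobase of exon (vertical axis, log scale) of the 10 synaptotagmins in the 7 Myc mice, filled circles for 3 females and open circles for 4 males, with the mean as a red line. Levels run from 126.7 for Syt1 to 4.14 for Syt2, and the points of Syt12 and Syt2 intermix.

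H2A.Z deletion was followed by lower transcript levels of many of these 10 synaptotagmins, which were chosen with earlier results known. In females, 9 of the 10 genes were lower in KO than in Myc mice, against 16.5% of all genes tested called lower, and in males 5 of 10 were lower against 14.4%. None was higher in either sex, where 18.1% and 17.2% of all genes were. The median log2 fold change of the 10 was -0.57 in females and -0.41 in males, while that of all genes was 0.0030 and 0.027. Values did not overlap between KO and Myc for 7 of the 10 in females and 6 in males, where 16.4% and 13.2% of all genes lay apart in the lower direction. All genes tested include many far scarcer than these 10, and shares among genes of like abundance were not computed.

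**Figure D2:**
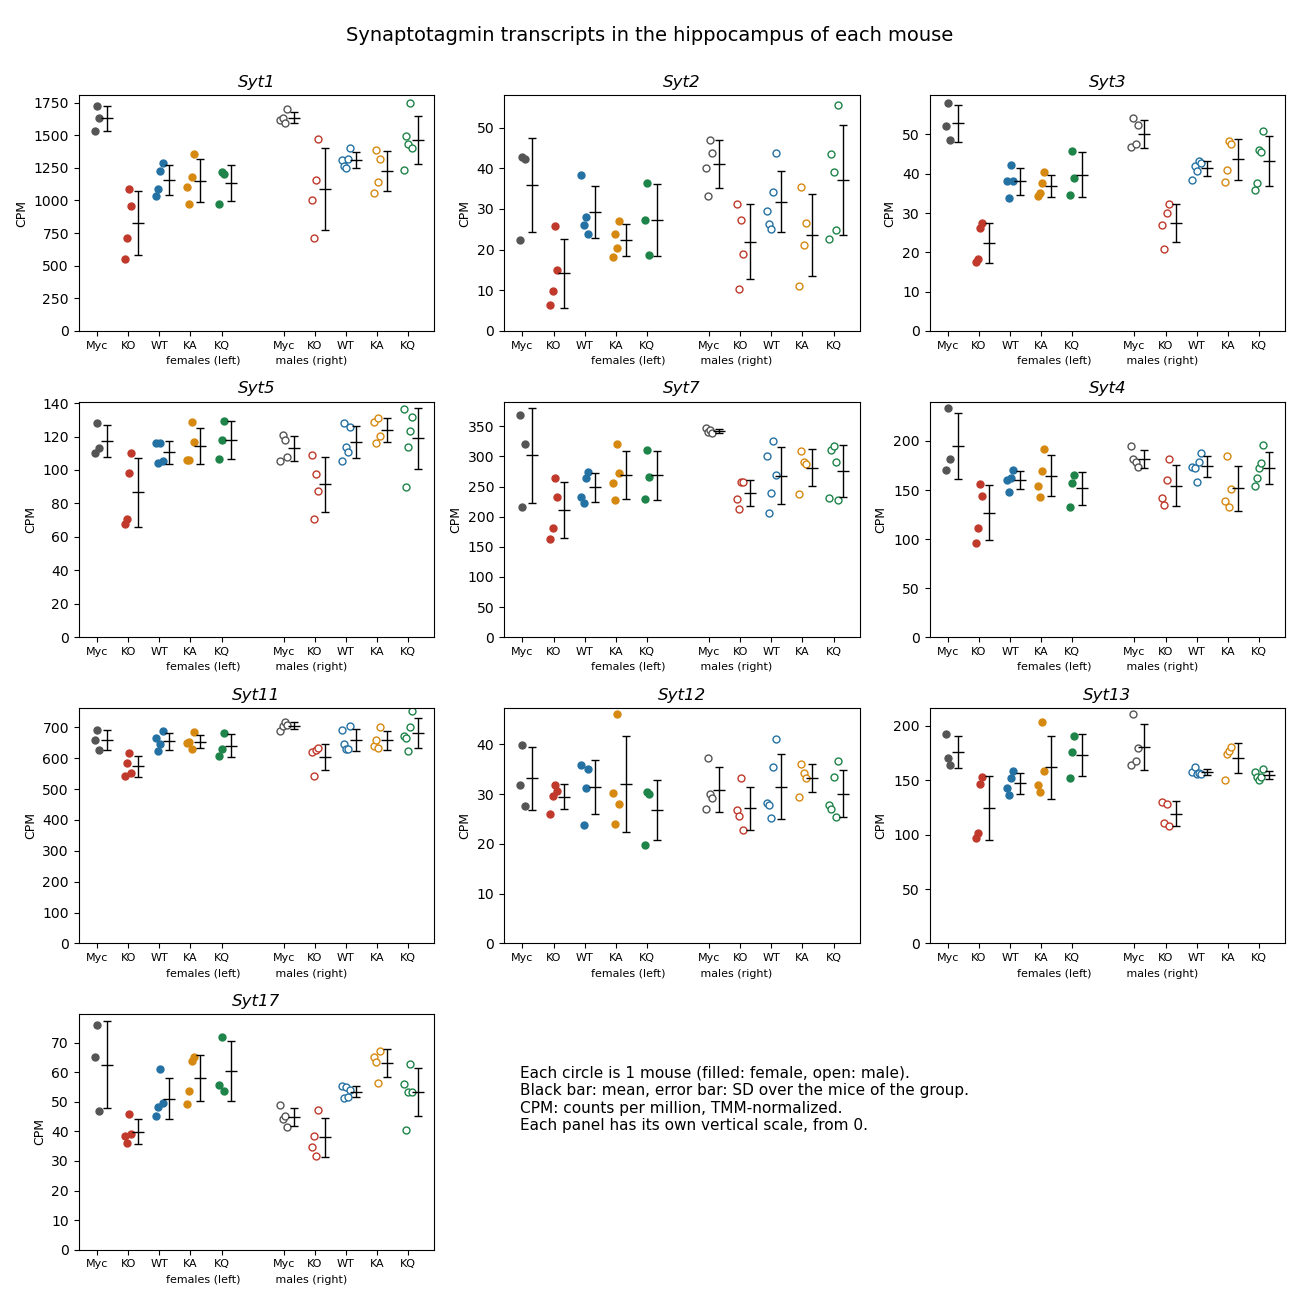
CPM of each synaptotagmin (1 panel per gene, vertical axis from 0) in every mouse, filled circles for females and open circles for males, with the group mean and SD in black. Syt3 in KO mice lies below every other group in both sexes (at most 32.2 CPM), while the groups of Syt12 intermix.

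Among the fast calcium sensors, Syt1 showed the largest drop in CPM. Syt1 stood at 1532, 1723 and 1635 CPM in the Myc females and at 548.1, 709.8, 1089 and 961.2 in the KO females. In males, Myc mice had 1620, 1635, 1593 and 1698 CPM and KO mice 1007, 714.1, 1157 and 1471. Every KO mouse was below every Myc mouse of its sex, and the KO mice were far more scattered (SD 244 and 315) than the Myc mice (95.5 and 44.6). The KO level was 0.51 times Myc in females (log2 -0.98, SE 0.17, adjusted p = 2.22e-05) and 0.66 times in males (log2 -0.59, SE 0.16, adjusted p = 0.00373).

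Syt2, the fast sensor of hindbrain and of some interneurons, was scarce and uneven. Its values were 22.4, 42.7 and 42.3 CPM in Myc females and 6.28, 9.80, 25.8 and 15.0 in KO females. In males it measured 40.0, 33.2, 47.0 and 43.7 CPM in Myc and 31.3, 10.4, 27.2 and 18.9 in KO mice. In females 1 KO mouse exceeded the lowest Myc mouse, and in males the groups lay apart. The change passed the threshold in females (log2 -1.33, SE 0.39, adjusted p = 0.00852), whereas in males it gave -0.90 (SE 0.36, adjusted p = 0.0597). Without male KO mouse 3 the male value was -1.12 (adjusted p = 0.0339), and DESeq2 gave an adjusted p of 0.037.

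Syt3, a high-affinity calcium sensor that also acts postsynaptically in AMPA receptor endocytosis, had the smallest p of the family in both sexes. It measured 52.1, 57.9 and 48.5 CPM in Myc females and 17.4, 18.4, 26.1 and 27.5 in KO females. Male values were 46.9, 54.1, 47.5 and 52.3 CPM in Myc and 27.0, 20.8, 29.9 and 32.2 in KO mice. The groups lay well apart in each sex. The KO level was 0.42 times Myc in females (log2 -1.24, SE 0.14, adjusted p = 1.65e-08) and 0.55 times in males (-0.87, SE 0.13, adjusted p = 1.14e-06).

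Syt7, the sensor for asynchronous release, was at 368.9, 215.3 and 320.3 CPM in Myc females and at 163.1, 182.0, 264.7 and 233.0 in KO females. In males all 4 Myc mice lay between 338.3 and 346.9 CPM, and the KO mice were at 229.2, 212.8, 257.8 and 256.8. The male groups were clearly apart, and the female groups overlapped because Myc mouse 31 lay under 2 KO mice. Both sexes gave a log2 fold change of -0.52 (adjusted p = 0.0116 in females and 0.00736 in males). Within sample numbers 1 to 20 the female value was -1.08 and within 21 to 40 it was -0.09 (adjusted p = 0.756). The female call was lost without Myc mouse 11 (log2 -0.35, adjusted p = 0.138), Myc mouse 32 (-0.47, 0.0502) or KO mouse 13 (-0.41, 0.0614).

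Syt5, a calcium-binding member found on dense-core vesicles, stood at 110.2, 128.1 and 113.4 CPM in Myc females and 67.97, 70.57, 97.98 and 110.0 in KO females. Myc males had 105.5, 121.0, 117.7 and 107.7 CPM, and KO males 109.2, 70.59, 97.79 and 87.68. The highest KO female nearly met the lowest Myc female, and in males KO mouse 3 lay inside the Myc range. Syt5 was lower in KO females (log2 -0.44, SE 0.13, adjusted p = 0.0102), and in males the value was -0.31 (SE 0.12, adjusted p = 0.0575). Leaving out KO mouse 13 (log2 -0.34, adjusted p = 0.0618), KO mouse 14 (-0.35, 0.0561) or Myc mouse 31 (-0.37, 0.0638) ended the female call, and leaving out KO mouse 3 made the male one (-0.40, 0.0182).

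Of the members with reduced calcium binding, Syt4 (chr18:31570857-31580794, -, 4 exons), a protein of dense-core vesicles that regulates neurotrophin release, was at 170.2, 233.3 and 181.6 CPM in Myc females and 96.46, 111.4, 156.1 and 143.8 in KO females. Male values were 194.6, 181.7, 178.4 and 173.2 CPM in Myc and 141.9, 134.7, 160.4 and 181.3 in KO mice. Female groups lay apart, and in males KO mouse 42 was within the Myc range. Syt4 was lower in KO females (log2 -0.62, SE 0.13, adjusted p = 0.000279), and the male value was -0.24 (SE 0.12, adjusted p = 0.142).

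Syt11, which restrains endocytosis, changed the least among those called. KO females were at 541.5, 584.8, 618.2 and 552.3 CPM against 658.6, 691.2 and 626.5 in Myc females. KO males had 619.0, 542.8, 625.2 and 633.1 CPM against 689.3, 704.3, 718.3 and 708.8 in Myc males. All KO mice lay below the Myc mice of their sex, by a narrow gap in females. The KO level was 0.87 times Myc in females (log2 -0.20, SE 0.08, adjusted p = 0.0396) and 0.86 times in males (-0.22, SE 0.07, adjusted p = 0.0142). The female call was lost on leaving out any of 5 mice, Myc 11 and 31 and KO 13, 14 and 34 (log2 -0.21 to -0.16, adjusted p = 0.0555 to 0.158), and the male call without KO mouse 4 (-0.17, 0.0796).

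Syt13, an atypical member with no calcium binding, was at 192.7, 170.5 and 164.1 CPM in Myc females and 97.16, 101.5, 146.2 and 152.8 in KO females. Myc males had 163.7, 210.7, 167.8 and 179.8 CPM and KO males 130.4, 110.7, 128.1 and 108.2. Groups lay apart in both sexes. Syt13 was lower in KO females (log2 -0.50, SE 0.12, adjusted p = 0.00151) and KO males (-0.60, SE 0.11, adjusted p = 8.44e-05).

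Syt17, a member without a transmembrane segment, measured 65.04, 75.96 and 46.75 CPM in Myc females and 38.56, 36.06, 45.87 and 39.28 in KO females. In males the Myc mice were at 48.93, 44.30, 45.04 and 41.46 CPM and the KO mice at 34.74, 38.28, 31.75 and 47.10. Female groups just lay apart, and male KO mouse 42 was above 3 of the 4 Myc mice. The female change passed the threshold (log2 -0.65, SE 0.14, adjusted p = 0.000326), and the male value was -0.25 (SE 0.13, adjusted p = 0.153), or -0.36 (adjusted p = 0.033) without KO mouse 42.

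Syt12, a phosphoprotein of synaptic vesicles that does not bind calcium, passed the threshold in neither sex. It stood at 31.94, 39.94 and 27.63 CPM in Myc females and 26.12, 29.56, 31.81 and 30.57 in KO females. Males had 27.07, 37.35, 30.11 and 29.19 CPM in Myc and 26.82, 25.60, 33.20 and 22.90 in KO mice. The groups overlapped, at log2 -0.17 in females (95% interval -0.55 to 0.21) and -0.19 in males (-0.54 to 0.17). Both intervals hold the changes that Syt7 and Syt13 showed in females.

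**Figure D3:**
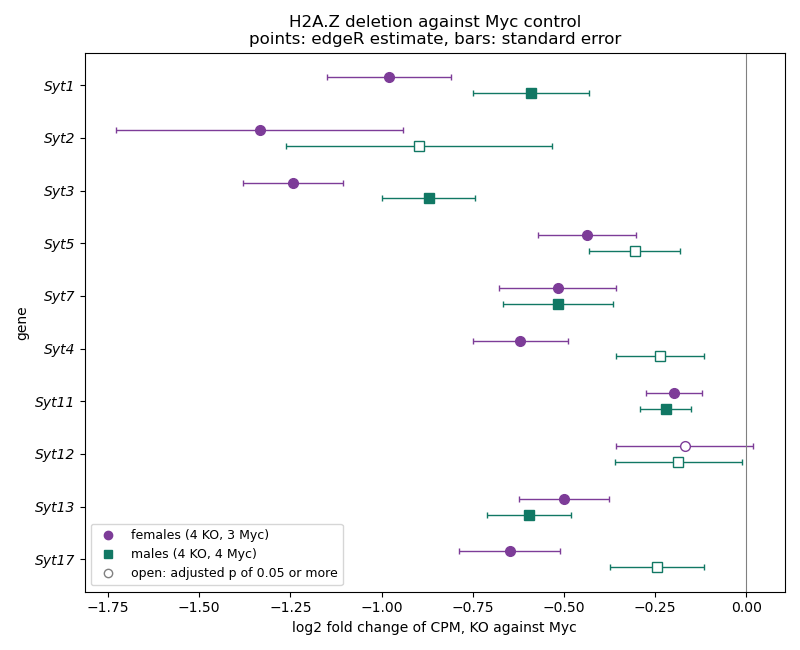
Log2 fold change of KO against Myc (horizontal axis) with its standard error for each synaptotagmin, circles for females and squares for males, open where the adjusted p was 0.05 or more. All 20 estimates lie below 0, from -1.33 for Syt2 in females to -0.17 for Syt12 in females.

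The change was not shown to differ between the sexes. In the test of the female minus the male response, edgeR called 0 of the 10 members and DESeq2 0, and 0% of all genes. Syt4 (difference -0.38, SE 0.18, unadjusted p = 0.038) and Syt17 (-0.40, SE 0.19, unadjusted p = 0.0398) were the only members with an unadjusted p below 0.05, and both missed the threshold by far after adjustment (adjusted p = 0.902 and 0.903). The 95% interval was -0.86 to 0.08 for Syt1 and -0.75 to 0.01 for Syt3.

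KO females fell into pairs by sample number. KO mice 13 and 14 were below KO mice 33 and 34 for every member but Syt11. Within sample numbers 1 to 20 (1 Myc and 2 KO females) Syt1 gave log2 -1.26 and Syt13 -0.94, and within 21 to 40 (2 and 2) they gave -0.69 and -0.15. Syt5 gave -0.65 and -0.20, and Syt7, as above, had the widest split. Within 21 to 40, where 18.2% of all genes were called in either direction, 3 members were called in females, Syt1 (adjusted p = 0.000177), Syt3 (log2 -0.97, adjusted p = 5.78e-05) and Syt4 (-0.45, adjusted p = 0.0279). In males the log2 values within 21 to 40 (2 Myc and 1 KO) ran from -0.75 for Syt3 to -0.004 for Syt12, with Syt1 at -0.46 and Syt13 at -0.54. With the range as a covariate, the female count stayed at 9 of 10, where 34.7% of all genes were called in either direction. Fitted on the 7 KO and Myc females alone, 4 of the 10 were called, against 30.1% of all genes tested in that fit. The 5 that lost their call there kept log2 values near those above: Syt2 -1.32, Syt7 -0.50, Syt13 -0.49, Syt5 -0.43 and Syt11 -0.19 (adjusted p = 0.0589 to 0.234).

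The fall was shared by other transcripts of the synapse. Of 29 genes of the release machinery, 21 were lower and 1 higher in KO females (median log2 -0.70), and 20 were lower and 1 higher in KO males (-0.50). Vamp1, a vesicle SNARE, gave -1.26 and -0.94 (adjusted p = 4.08e-06 and 9.33e-05), Cplx1, which clamps and aids fusion, -1.08 and -0.69, and Snap25, the SNARE partner of Syt1, -0.94 and -0.71. Ston2, an endocytic adaptor for synaptotagmin, was higher (0.64, adjusted p = 0.000335, and 0.51, adjusted p = 0.00162). Of 12 pan-neuronal markers 11 were lower in females (median -0.65) and 6 in males (-0.40). Summed markers of neuron subtypes moved unequally. Female Myc and KO medians were 199.4 and 107.3 CPM for CA3 and 796.3 and 442.6 for interneurons. Those of CA1 (426.6 and 375.7) and dentate granule cells (332.2 and 306.1) overlapped between mice. Male medians were 217 and 121.8 for CA3, 836.4 and 507.7 for interneurons, 520.4 and 397.7 for CA1, and 391.9 and 319.7 for dentate. Thalamus medians were higher in KO.

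Relatives outside the 10 did not all move the same way. Of the other 7 synaptotagmins tested, Syt14 (log2 -0.67 in females and -0.69 in males) and Syt16 (-1.11 and -0.79) were lower in both sexes, and 4 did not pass the threshold in either. Syt8 was the only one called higher, at a trace: it had 0 counts in 6 of 7 Myc mice and 3 in the other, and 5 to 26 in each KO mouse. Among 13 relatives with tandem C2 domains, Esyt1, a tether between endoplasmic reticulum and plasma membrane, was higher (1.56 and 1.62, adjusted p = 1.15e-07 and 2.24e-09), and Doc2a, a sensor for spontaneous release, lower (-1.26 and -0.86).

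**Figure D4:**
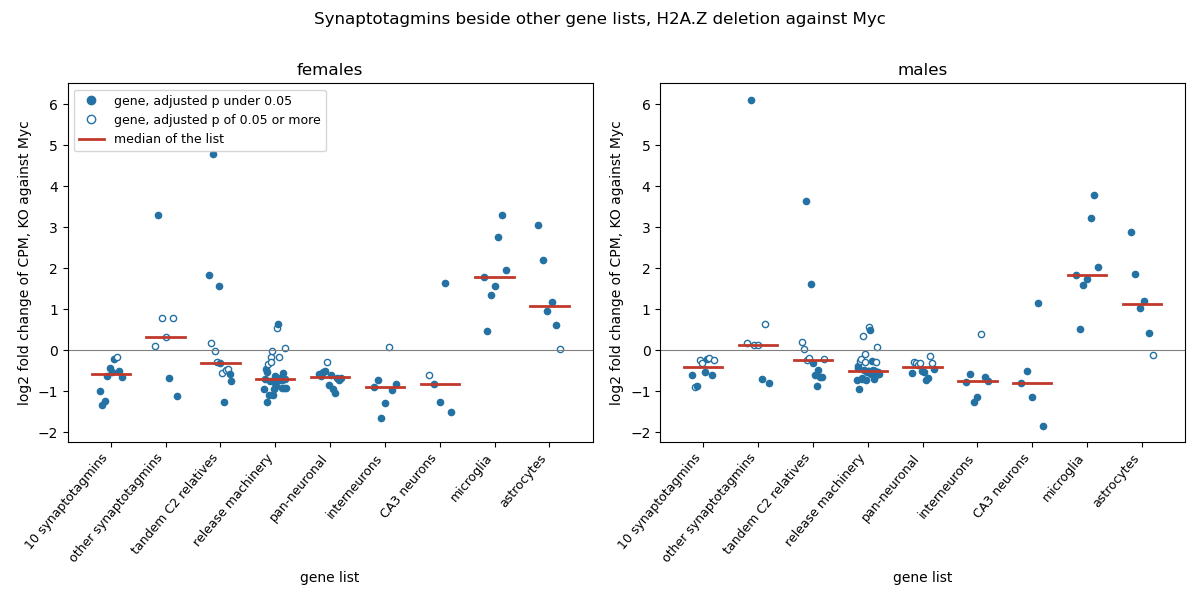
Log2 fold change of KO against Myc for each gene of 9 lists in females and males, filled where the adjusted p was below 0.05, with the median of each list in red. The dentate granule, CA1 and thalamus markers are not drawn. Medians of the 10 synaptotagmins (-0.57 and -0.41) lie near those of the pan-neuronal markers (-0.65 and -0.40), while microglial and astrocyte medians lie above 1; the highest male point, Syt8, rests on a Myc group at 0 and depends on the prior count.

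Set against the summed pan-neuronal markers of the same mouse, the members parted. This scale was chosen after the values were seen and carries no test. The marker sum was itself lower in KO (median 4613 against 7403 CPM in Myc females, 5217 against 7262 in males). A gene whose CPM fell less than that sum is therefore higher on this scale. How many of all genes lay apart on it was not computed. Syt3 fell short of the markers in both sexes, with 4.99 CPM per 1000 CPM of markers in KO against 7.04 in Myc females and 5.45 against 6.87 in males, and the mice did not overlap. Syt1 was lower on this scale in females (182 against 217, no overlap) and overlapped in males (213 against 224). Syt11, by contrast, was higher per neuronal marker in both sexes without overlap, at 134 in KO against 87.9 in Myc females and 122 against 96.7 in males. Syt5 and Syt12 in females and Syt4 in males were also higher in KO on this scale without overlap, and the remaining members overlapped.

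H2A.Z.1 replacement was compared with KO to see which members were higher once H2A.Z.1 was supplied. All 6 comparisons use the KO mice of their sex. WT females had 2 of 10 members higher (5.36% of all genes were called higher), KA females 6 (5.63%) and KQ females 4 (5.36%). With the sample number range as a covariate these female counts were 7, 7 and 5. In those fits 17.2%, 18.7% and 14.8% of all genes were called in either direction. WT males had 4 higher (7.44%), KA males 4 (5.86%) and KQ males 5 (8.72%). None was lower in any of the 6, where 9.17%, 9.62% and 7.63% of all genes in WT, KA and KQ females and 12%, 9.94% and 12.7% in males were called lower. The members' median log2 fold change ran from 0.26 in KA males to 0.45 in KQ females, and that of all genes from -0.02 to 0.01.

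Syt3 was the member called in all 6. Its values were 38.20, 33.80, 42.24 and 38.02 CPM in WT females, 34.24, 35.19, 37.63 and 40.35 in KA females, and 34.48, 45.88 and 38.80 in KQ females. WT males had 38.31, 41.99, 40.66, 43.24 and 42.70 CPM, KA males 37.81, 40.85, 48.29 and 47.53, and KQ males 35.95, 37.63, 46.09, 45.43 and 50.97. All 25 replacement mice were above all KO mice of their sex, whose highest values were 27.5 and 32.2 CPM. Log2 fold changes over KO were 0.77, 0.72 and 0.83 for WT, KA and KQ females and 0.59, 0.67 and 0.66 for males, with adjusted p between 0.000109 and 0.000403.

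Syt17 was higher than in KO in 5 of the 6 comparisons. It reached 65.17, 63.56, 56.29 and 67.11 CPM in KA males, and 55.20, 51.32, 55.04, 51.72 and 54.02 in WT males. In KQ males it was at 55.93, 40.51, 53.42, 62.77 and 53.41 CPM. KA and WT males lay above all KO males, and 1 KQ male overlapped with KO mouse 42. Fold changes were 0.73 (adjusted p = 0.000118), 0.50 (0.00317) and 0.49 (0.00336) on the log2 scale for KA, WT and KQ males. KA females had 49.13, 53.58, 63.73 and 65.23 CPM (log2 0.54, adjusted p = 0.00407) and KQ females 55.54, 71.94 and 53.76 (0.60, 0.00382), all above the KO females. The KQ female call was lost without KQ mouse 37 (0.45, adjusted p = 0.0767), and WT females gave 0.35 (0.0591).

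Syt13 and Syt5 were called in the same 5 comparisons as Syt17. Syt13 means were 147.2 ± 9.60, 161.9 ± 29.1 and 172.9 ± 19.3 CPM (SD) in WT, KA and KQ females, and 157.5 ± 2.77, 170.3 ± 13.8 and 154.8 ± 3.93 in males. Every replacement male was above every KO male, and the female groups overlapped with KO mouse 34. The log2 fold changes over KO were 0.40, 0.51 and 0.37 in WT, KA and KQ males, and 0.38 and 0.48 in KA and KQ females. Without KO mouse 13 or 14, or KA mouse 35, or KQ mouse 37 or 38, the female calls were lost (adjusted p = 0.0506 to 0.166), and without KO mouse 4 the KQ male one (0.0518). Syt5 means were 110.5 ± 6.68, 114.3 ± 10.9 and 117.9 ± 11.3 CPM in WT, KA and KQ females and 116.7 ± 9.72, 124.1 ± 7.12 and 118.9 ± 18.4 in males. Its changes over KO ran from 0.35 to 0.44 where called (adjusted p = 0.0113 to 0.031), and KA males were apart from KO males. Each of these Syt5 calls was lost without at least 1 mouse (adjusted p = 0.0548 to 0.194): KO mouse 13 or 14, KA mouse 35 or 36, or KQ mouse 37 or 38 in females, KO mouse 4 in all 3 male groups, KO mouse 42 or WT mouse 10 or 46 in WT males, and KQ mouse 8 in KQ males.

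Syt1 in the replacement mice lay between KO and Myc on average. WT females were at 1037, 1086, 1225 and 1287 CPM, KA females at 1100, 969.4, 1177 and 1360, and KQ females at 975.0, 1218 and 1205. WT males had 1309, 1264, 1248, 1316 and 1405 CPM, KA males 1054, 1384, 1142 and 1318, and KQ males 1233, 1496, 1432, 1746 and 1403. All replacement females lay between the KO and Myc means of their sex, and each group overlapped with KO mouse 33. Syt1 was higher than KO in WT females (log2 0.49, adjusted p = 0.0323), KA females (0.48, 0.0356) and KQ males (0.43, 0.0382), and in KQ females the value was 0.45 (0.0714). The WT call was lost without KO mouse 13 or 14 or WT mouse 39 or 40 (adjusted p = 0.0866 to 0.194), and the KA call without KO mouse 13 or 14 or KA mouse 35 or 36 (0.0801 to 0.206). The KQ male call was lost without KO mouse 3, 4 or 21 or KQ mouse 27, 28 or 44 (0.0504 to 0.248).

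The other members were called once or not at all. Syt4 was called in KA females (164.5 ± 20.9 CPM, log2 0.37, adjusted p = 0.0316), a call lost without KO mouse 13 or 14 or KA mouse 35 or 36 (0.0779 to 0.19). Its other group means were 160.3 and 151.9 CPM in WT and KQ females and 174.1, 151.7 and 172.5 in WT, KA and KQ males. Syt2 averaged 29.2, 22.4 and 27.4 CPM in WT, KA and KQ females and 31.8, 23.6 and 37.2 in males, with wide spread. It passed no threshold against KO, the largest value being 1.04 (95% interval 0.29 to 1.79, adjusted p = 0.0546) in WT females. That value was called with the sample number range as a covariate (1.15, adjusted p = 0.0199) and by DESeq2 (0.023), with filterByExpr (0.0406), without robust estimation (0.0357) and without the mice above 1000 CPM of Ttr, a choroid plexus gene (0.0413). Syt7 means were 248.6, 269.1 and 268.3 CPM in WT, KA and KQ females and 268.2, 281.1 and 275.3 in males. Syt11 means were 640.3 to 682.3 CPM over the 6 groups and those of Syt12 26.8 to 33.2, and none of Syt7, Syt11 and Syt12 was called against KO. With the range as a covariate Syt11 was called in WT and KA females (log2 0.19 each, adjusted p = 0.0263 and 0.0281), and DESeq2 called it there (0.0169 and 0.0138) and in KQ males (0.0109).

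The female calls against KO depended on single mice. Leaving out 1 mouse at a time moved the count from 2 to between 1 and 7 in WT females, from 6 to between 2 and 9 in KA females, and from 4 to between 1 and 8 in KQ females. The highest counts came without KO mouse 33. The lowest came without KO mouse 13 or 14 or WT mouse 39 or 40 for WT, without KO mouse 13 or 14 or KA mouse 35 for KA, and without KQ mouse 37 for KQ. In males the counts stayed at 3 or 4 for WT and KA and between 2 (without KO mouse 4) and 6 for KQ. Shares of all genes called in these refits are not given here. Whether the member counts moved more than calls over all genes was therefore not tested. Markers moved here too: all 7 microglial markers were lower than in KO in 5 of the 6 comparisons and 6 of 7 in KA females, and summed pan-neuronal markers were 4761 to 7726 CPM in replacement mice against 3267 to 5913 in KO.

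**Figure D5:**
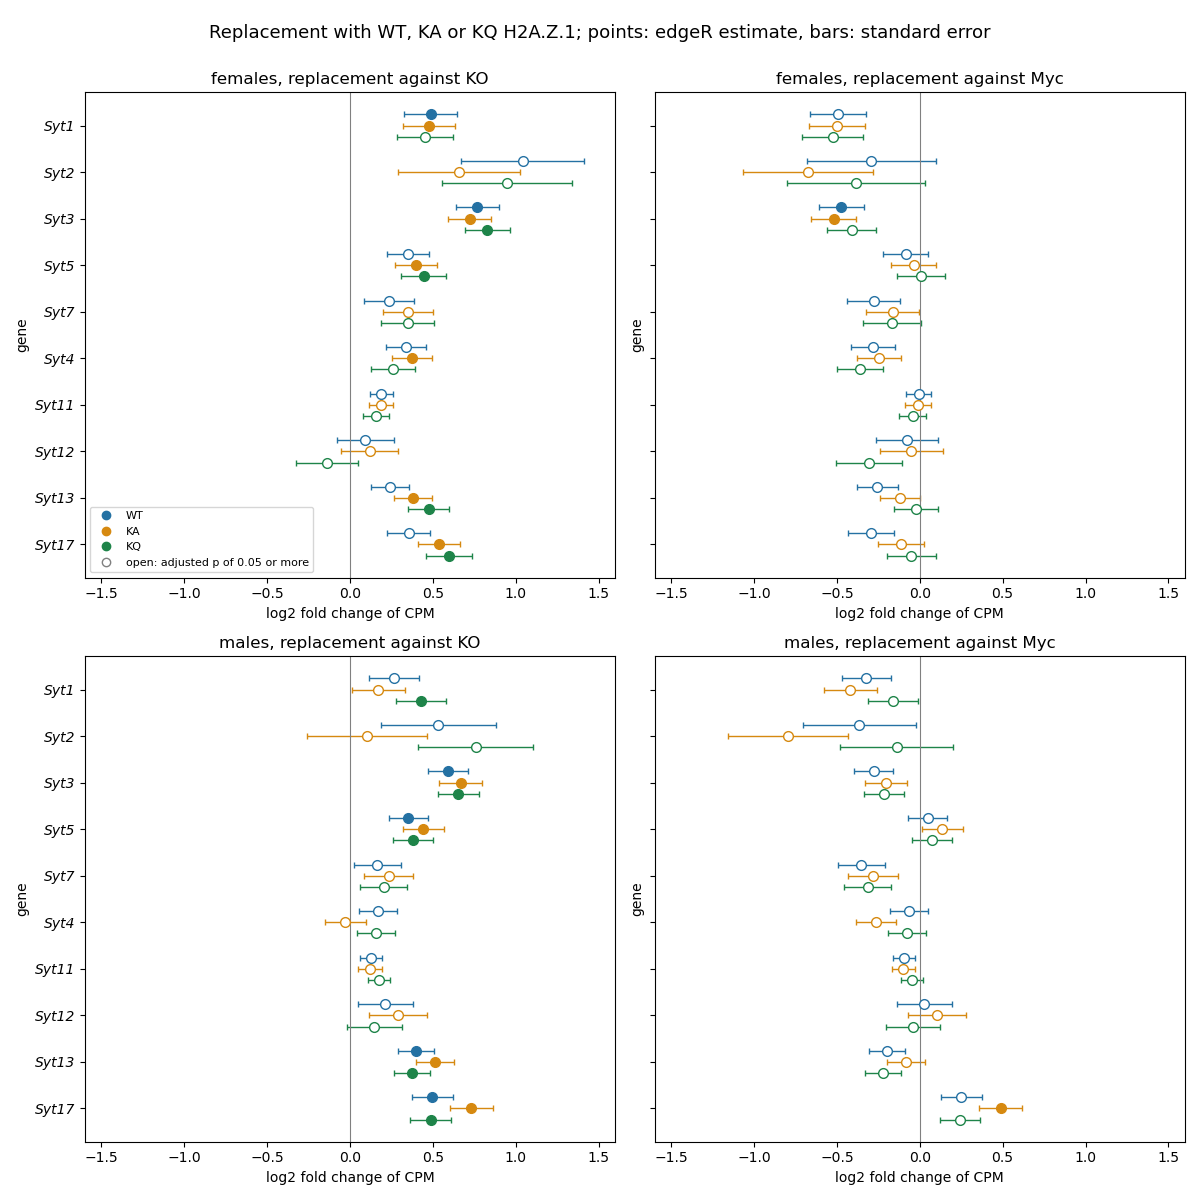
Log2 fold change with standard error of each synaptotagmin in WT, KA and KQ mice against KO (left) and Myc (right) of the same sex, open where the adjusted p was 0.05 or more. Syt3 is filled in all 6 groups against KO (0.59 to 0.83), and against Myc the filled points are Syt3 in WT and KA females and Syt17 in KA males.

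Against Myc, edgeR called at most 1 member in each replacement group. Members whose values lay wholly below Myc were 3, 2 and 3 in WT, KA and KQ females (9.37%, 8.26% and 8.94% of all genes) and 4, 2 and 2 in males (5.34%, 8.14% and 3.68%). In WT females 1 member was lower (3.52% of all genes were called lower) and in KA females 1 (3.23%), Syt3 in both cases (log2 -0.47, SE 0.14, adjusted p = 0.0245, and -0.52, SE 0.14, adjusted p = 0.0147). All WT and KA females were under all Myc females for Syt3. The WT call was lost without Myc mouse 11 or 31 or WT mouse 19 or 20 (adjusted p = 0.0502 to 0.128) and the KA call without Myc mouse 31 or KA mouse 15 or 16 (0.0503 to 0.0945). In KQ females edgeR called 0 (5.68% of all genes in either direction) and DESeq2 2, with 3 members at an unadjusted p below 0.05, and Syt3 gave -0.41 (adjusted p = 0.0858). Syt1 gave log2 values of -0.49, -0.50 and -0.52 in WT, KA and KQ females, apart from Myc in each, with adjusted p of 0.0594, 0.0617 and 0.0795. With the sample number range as a covariate it was called in all 3 (-0.45, -0.46 and -0.53, adjusted p = 0.015, 0.0139 and 0.00873).

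In males, Syt17 was the only member called against Myc, and it was higher. KA males at 56.3 to 67.1 CPM were all above Myc males at 41.5 to 48.9 (log2 0.49, SE 0.13, adjusted p = 0.0123), where 5.15% of all genes were called higher. Leaving out any 1 mouse kept this call. Within sample numbers 1 to 20, with 1 mouse in each group, the value was 0.43, and within 21 to 40, with 2 in each, 0.43 (adjusted p = 0.424). WT males were also above all Myc males in Syt17 (0.25, adjusted p = 0.259), and KQ males overlapped (0.24, 0.273). In WT males 0 members were called by edgeR and 0 by DESeq2 (5.34% of all genes in either direction; 4 members at an unadjusted p below 0.05), and in KQ males 0 and 0 (5.13%; 2 members). The members that lay wholly below Myc were Syt1, Syt3, Syt7 and Syt13 in WT males, Syt1 and Syt7 in KA males, and Syt7 and Syt13 in KQ males. Fitted on the compared groups alone, Syt1 (log2 -0.32, adjusted p = 0.00152), Syt3 (-0.27, 0.0104) and Syt7 (-0.35, 0.0397) were lower and Syt17 higher (0.25, 0.0185) in WT males, and Syt1 (-0.43, 0.00481) and Syt7 (-0.29, 0.0173) were lower in KA males. The range as a covariate called Syt1 lower in KA males (-0.43, 0.0122).

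The lysine forms were not told apart. Between KA and KQ 0 of the 10 members were called by edgeR and 0 by DESeq2 in females and in males, with 0% of all genes called in each and no member at an unadjusted p below 0.05. Of the differences, KA minus KQ, the largest was that of Syt2 in both sexes, -0.29 (95% interval -1.09 to 0.51) in females and -0.65 (-1.36 to 0.05) in males. Syt3 gave -0.11 (-0.38 to 0.17) in females and 0.01 (-0.23 to 0.26) in males, and Syt17 in males 0.24 (-0.00092 to 0.49).

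Without deletion the sexes did not differ past the threshold: 0 of 10 members were called between female and male Myc mice by edgeR and 0 by DESeq2 (0.0457% of all genes called). Syt17 came nearest and was the only member with an unadjusted p below 0.05, at 62.6 ± 14.8 CPM in females (SD, n = 3) and 44.9 ± 3.08 in males (n = 4). Female Myc mouse 32, at 46.8 CPM, lay inside the male range, and the log2 difference was 0.48 (SE 0.14, adjusted p = 0.279). The other 9 differed by at most 0.20 on the log2 scale.

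Mouse by mouse, after the group means were taken out, Syt1 and Syt4 moved most alike (r = 0.82 over 40 mice), followed by Syt1 and Syt3 (r = 0.76). Pairs at the other end were Syt17 and Syt2 (-0.02) and Syt11 and Syt7 (0.06), and the median of the 45 pairs was 0.42. Genes of a mouse share its library and tissue makeup, so these are descriptions without a test. Over 15936 genes, those nearest to Syt1 were Bcl11a and Rab6b (r = 0.96 each) and Trim37 (0.96), and those nearest to Syt3 were Mapre3 (0.92), Thy1 (0.91) and Scn2b (0.90). For Syt2 they were Coro6 (0.93), Kcnab3 (0.90) and Slc17a6 (0.90), the vesicular glutamate transporter abundant in thalamus, whose own KO change was -0.62 in females (adjusted p = 0.296) and -0.23 in males (0.716). Syt7 was nearest to Dagla (0.89), Syt4 to Rnf14 (0.90), Syt12 to Hras (0.90), Syt13 to Pfkl (0.88), Syt5 to Prkar1b (0.85), Syt11 to Gnai1 (0.77) and Syt17 to Ak4 (0.72).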

How the data were processed

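RNA-seq counts per gene were deposited by the authors for 40 mice. By the study's methods, paired-end reads were aligned to GRCm39 and counted with featureCounts; the submitters' processing notes also name FastQC 0.11.9 and DESeq2 1.38.3. The deposited normalized table was not used here. The 28449 genes whose counts summed to 20 or more were scaled by TMM and tested with edgeR 4.0.16 (quasi-likelihood, robust, 10 groups in 1 model, R 4.3.3). Benjamini-Hochberg adjustment ran over all genes, with calls at 0.05. This recovered known changes on simulated data. Those changes were placed in male KO against Myc alone and were larger than most member changes, so smaller ones were not tried. Replicates are separate mice; no 2 libraries agreed within sampling noise. Counting precision is limited by totals of 24342921 to 45982772. Exon lengths and coordinates come from GENCODE vM39 (GRCm39), promoter windows from RefSeq.

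Alternatives were DESeq2 1.42.0, its size factors, other filters, no robust estimation, only the compared groups, sample number ranges, no mice above 1000 CPM of Ttr (KO 14 and 33, KQ 17 and WT 20, all female), and leaving out each mouse. All 10 members are named in every comparison; of other lists up to 4 genes with the smallest p, and for each member the 3 genes with the highest correlation of log2 CPM deviations from the group means, of which report text gives the first or all. The members and lists were chosen with earlier results of these data known.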

Additional observations from a re-analysis of the deposited data

Results flagged for a closer look

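A gap test within groups of 4 or 5 mice picked out 2 of 80 group values, where chance gives about 1 in 20. Syt11 in male KO mouse 4 was at 542.8 CPM while the other KO males were at 619.0 to 633.1. Syt13 in male WT mouse 10 was at 162.4 CPM while the other WT males were at 155.8 to 157.2.

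For Syt17 the WT mean minus the Myc mean was -11.57 CPM in females and 8.528 CPM in males, opposite in sign. Neither passed the threshold (log2 -0.30, adjusted p = 0.176, and 0.25, 0.259). This difference between the sexes was not tested.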

How the results depend on the processing

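No paired analysis was possible because mouse numbers were unique to a mouse, so the groups compared shared none. Over 3280 refits of member fold changes, 3058 kept their side of the threshold, 133 lost a call and 89 gained one. Among the 3058 were 142 uncalled values that changed sign and stayed uncalled. None of the called values changed sign. Counts of members called moved as follows; the cause was not tested. Percentages beside them are of all genes called in either direction under the same setting. Within sample numbers 21 to 40, which hold fewer mice, the counts were 3 for KO against Myc in females (18.2%). Against KO they were 1 each in WT, KA and KQ females (5.13%, 5.98% and 5.95%). Against Myc they were 1 in KQ females (2.23%) and 0 in KA males (1.89%). This range holds 1 male KO, so no counts are given here for the male comparisons with KO. Within 1 to 20 the count was 6 in WT females against KO (15.0%). That range holds 1 mouse each of female and male Myc, female and male KQ and male KA, so no counts are given here for comparisons with those groups. With only the compared groups, the count was 4 for female KO against Myc (30.1%). Against KO the counts were 1, 2 and 0 in WT, KA and KQ females (13.2%, 9.88% and 1.37%) and 3 in KQ males (15.7%). Against Myc they were 2 in WT and KA females (9.93% and 6.06%), 4 in WT males (12.7%) and 3 in KA males (15.4%). With the range as a covariate they were 7 in WT females against KO (17.2%). Against Myc they were 2, 2 and 3 in WT, KA and KQ females (11.1%, 9.24% and 9.69%) and 2 in KA males (10.5%). For the settings that follow, shares of all genes are not given here. DESeq2 gave 4 in WT females against KO and 2 in each female group against Myc. filterByExpr gave 5 in WT females against KO and 2 in WT and KA females against Myc, and no robust estimation gave 4 in WT females against KO. Without the mice above 1000 CPM of Ttr the counts were 5 in WT females against KO, and 0 in WT and 2 in KA females against Myc.

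Leaving out 1 mouse gave 6 to 9 for KO against Myc in females and 4 to 7 in males. Against KO it gave 1 to 7 in WT females, 2 to 9 in KA females, 1 to 8 in KQ females, 3 to 4 in WT males and KA males, and 2 to 6 in KQ males. Against Myc it gave 0 to 2 in WT and KA females and 0 to 1 in KQ females. The other comparisons kept their count. Shares of all genes are not given here for these refits either.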
